A study of Mus musculus with 161 samples.

Results

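The 6 h M0 library held 2446 single bone marrow-derived macrophages that were kept unpolarized for 6 h. Its members were all barcodes of that library, and they made up 2446 of the 22881 barcodes in the 7 single-cell libraries of the study. The 0 h M0 library (5985 barcodes) and the 24 h M0 library (2727 barcodes) were used for comparison. The study polarized macrophages towards M1 or M2 states and profiled them over time, and M0 cells were its unpolarized control.

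All 3 groups were wild-type cells flushed from the femurs of C57BL/6J mice aged 6 to 10 weeks. The marrow was cultured in RPMI-1640 with 20% horse serum, penicillin, streptomycin and 20 ng/mL MCSF, the growth factor that drives macrophage differentiation. Cells at 0 h M0 were taken on day 7, and the 6 h M0 and 24 h M0 cells stayed in the same base medium without LPS, IFN-γ or IL-4. Whether that medium, with its serum and MCSF, was renewed at day 7 is not given in the sources used here. Cells were detached with cold Versene and scraping, and the libraries were made with the 10X droplet method. Each time was 1 library of 1 biological replicate, so no test between times was possible, and the time in culture and the library cannot be told apart. Intervals below are exact 95% intervals and cover counting error only.

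Macrophages grown from bone marrow divide in response to MCSF, which acts through the receptor Csf1r. A dividing cell first copies its DNA in S phase, with the Mcm helicase and the clamp Pcna, and then separates its chromosomes in G2 and M phases. Top2a, the topoisomerase that untangles DNA, and Birc5 (survivin), which helps to attach and divide chromosomes, are made mainly in G2 and M phases. Cells that grow also make ribosomes, which are assembled in the nucleolus, while mature tissue-like macrophages make complement C1q, apolipoprotein E and scavenger receptors.

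Median depth was 1999.5 unique molecular identifiers (UMIs, 1 per captured RNA molecule) per barcode at 6 h, against 1025 at 0 h and 1751 at 24 h, with totals of 6022816, 7570554 and 5725353 UMIs. The shallowest barcode held 838 UMIs at 6 h, against 440 at 0 h and 697 at 24 h. Levels are given as UMIs of a gene per 1000000 UMIs of the library (CPM). Shares of cells are given after each barcode was thinned at random to 500 UMIs, which kept all barcodes at 6 h and 24 h and 5585 at 0 h. The 6 h library shared 25 barcode sequences with the 0 h library and 9 with the 24 h library. Mitochondrially encoded genes took a median of 1.55% of the UMIs of a barcode at 6 h, against 1.99% at 0 h and 1.09% at 24 h. Gm42418, a predicted gene that overlaps ribosomal RNA and was chosen after its values were seen, was at 1455 CPM at 6 h, 696 CPM at 0 h and 972 CPM at 24 h.

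The cells carried the markers of their label. All 10 macrophage markers had UMIs at 6 h, and together they stood at 14612 CPM at 6 h (0 h 21202 CPM, 24 h 22308 CPM). Lyz2 (lysozyme) was detected in 96.7% of the 6 h barcodes. Among the 9 macrophage markers measured against 0 h, 3 were at least 1.5-fold lower at 6 h, and 5 of 10 were lower than at 24 h. Csf1r was at 388 CPM at 6 h, against 436 CPM at 0 h and 734 CPM at 24 h, Cd68 at 771 CPM at 6 h (0 h 849 CPM, 24 h 887 CPM), and Adgre1, which encodes F4/80, at 186 CPM at 6 h, against 289.7 CPM at 0 h and 385 CPM at 24 h. Markers of other cells were scarce, and their part in the results below was not tested. Summed levels at 6 h were 70.4 CPM for 15 neutrophil genes, 84.8 CPM for 10 monocyte genes, 48.3 CPM for 9 T and NK cell genes and 37.4 CPM for 10 progenitor genes. Of the 9 T and NK cell genes 7 had no UMI at 6 h. In the 6 h barcodes without cell cycle UMIs after thinning, Il7r gave all 63.4 CPM of that list. Sox4 gave 45.4 of the 53.1 CPM of the progenitor list there. Endothelial, dendritic cell, fibroblast, B cell, erythroid and mast cell lists were between 0.996 and 17.9 CPM. The 11 fibroblast genes were at 12.0 CPM at 6 h (0 h 0.528 CPM, 24 h 1.92 CPM). After thinning only 2 barcodes at 6 h held a UMI of these genes, and 1 of them held 7. The megakaryocyte list was at 7886 CPM, of which Pf4, a chemokine that macrophages also make, gave 7841 CPM, and the osteoclast list was at 158 CPM at 6 h, against 126 CPM at 0 h and 181 CPM at 24 h. No UMI of the Y-linked genes was found in any of the 3 libraries, whereas Xist was at 855 CPM at 6 h (0 h 775 CPM, 24 h 577 CPM).

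The first question was which genes set the 6 h cells apart from M0 cells of the other times. Of 5054 genes with at least 20 CPM at 6 h or 0 h, 355 (7.02%) were at least 1.5-fold higher at 6 h than at 0 h and 192 (3.8%) at least 1.5-fold lower. Against 24 h M0 the distance was larger. Of 5290 genes, 1200 (22.7%) were higher at 6 h and 836 (15.8%) lower. The distance between 0 h and 24 h was intermediate, with 565 (11%) of 5118 genes higher and 695 (13.6%) lower at 24 h. At least 1.5-fold above both other times at 6 h were 290 genes (5.4% of 5372), and 203 genes (3.78%) were below both, so that the 6 h library did not lie between the other times for these genes. Both comparisons share the 6 h library, so a deviation of that library enters both.

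**Figure D1:**
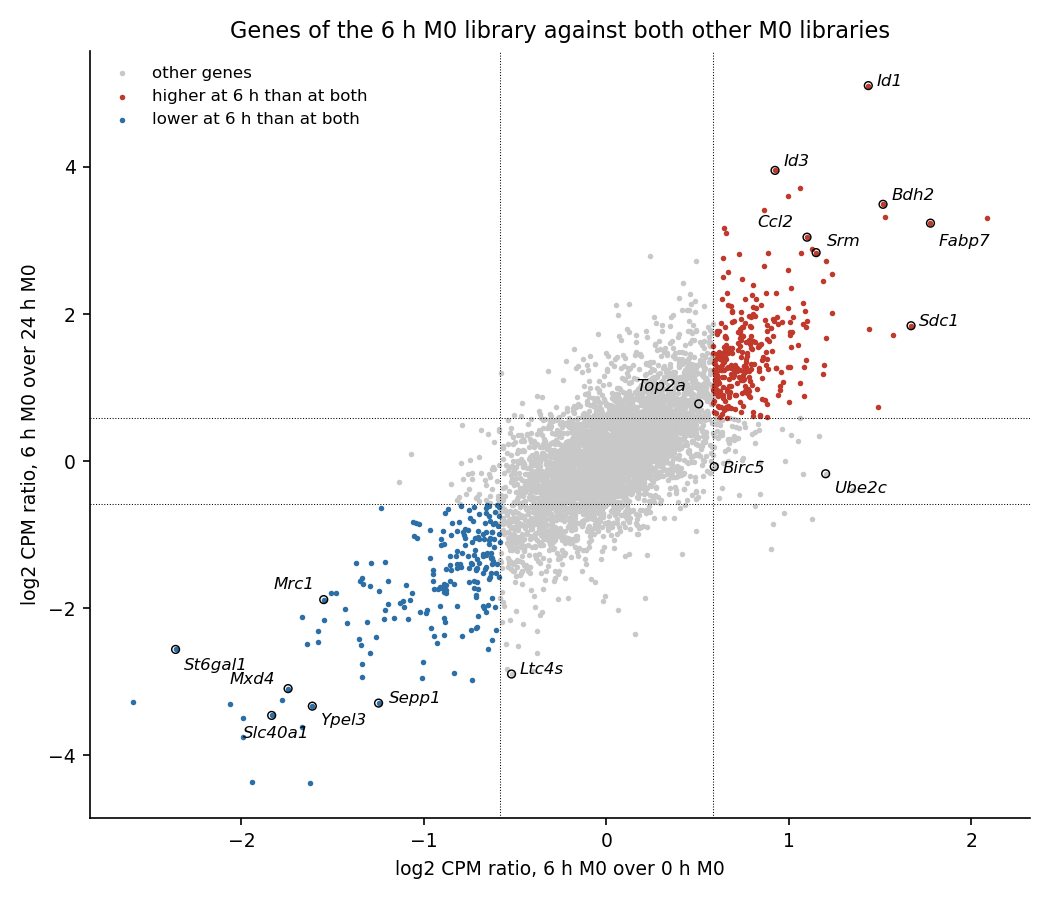
Each point is a gene with at least 20 CPM in at least 1 of the 3 M0 libraries and UMIs in all 3, placed by its log2 CPM ratio of 6 h over 0 h (horizontal) and of 6 h over 24 h (vertical), with dotted lines at 1.5-fold. The 290 genes higher than at both times fill the upper right, among them Id1, Bdh2 and Fabp7, and Ypel3, Sepp1, Mxd4 and St6gal1 lie at the lower left.

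The genes farthest above both other times included Id1, Srm, Gnl3, Fabp7 and Ccl2. Id1, an inhibitor of differentiation that blocks basic helix-loop-helix factors, was at 108 CPM at 6 h, against 40.0 CPM at 0 h and 3.14 CPM at 24 h. It was higher at 6 h than at 0 h by 2.70-fold (interval 2.36 to 3.11) and than at 24 h by 34.4-fold (interval 21.6 to 58.5), and its 18 UMIs at 24 h made that ratio less precise. Its relative Id3 was at 129.8 CPM at 6 h (0 h 68.4 CPM, 24 h 8.38 CPM), and Id2 at 146 CPM at 6 h, against 90.6 CPM at 0 h and 64.8 CPM at 24 h. All 3 measured Id genes were thus highest at 6 h and lowest at 24 h.

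Srm, spermidine synthase, was at 148 CPM at 6 h (0 h 66.8 CPM, 24 h 20.8 CPM), which was 2.22-fold (interval 1.99 to 2.48) above 0 h and 7.13-fold (interval 5.89 to 8.71) above 24 h. Gnl3, nucleostemin of the nucleolus, was at 115 CPM at 6 h, against 52.6 CPM at 0 h and 15.5 CPM at 24 h. Nop56, a core protein of the box C/D particles that modify ribosomal RNA, was at 56.6 CPM at 6 h (0 h 24.0 CPM, 24 h 13.97 CPM). These ribosome and polyamine genes were lower at 24 h than at 0 h as well. Ddx18, a nucleolar RNA helicase, was at 143 CPM at 6 h, against 62.7 CPM at 0 h and 62.9 CPM at 24 h, and Eif3j1, a translation initiation factor subunit, at 84.2 CPM at 6 h (0 h 36.9 CPM, 24 h 33.9 CPM), so for both the other times were level with each other.

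Fabp7, a fatty acid binding protein, was at 54.3 CPM at 6 h, against 15.9 CPM at 0 h and 5.76 CPM at 24 h, the largest ratio over 0 h among named genes of at least 50 CPM, at 3.43-fold (interval 2.77 to 4.26). Bdh2, a dehydrogenase linked to siderophore synthesis, was at 58.9 CPM at 6 h (0 h 20.6 CPM, 24 h 5.24 CPM), and Sdc1, a heparan sulphate carrier of the cell surface, at 53.8 CPM at 6 h, against 16.9 CPM at 0 h and 15.0 CPM at 24 h. Few cells carried these RNAs. Fabp7 was found in 2.08%, Bdh2 in 3.03% and Sdc1 in 2.58% of thinned 6 h barcodes.

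Ccl2, the chemokine that draws monocytes through Ccr2, was at 627 CPM at 6 h (interval 607 to 647), 293 CPM at 0 h and 76.0 CPM at 24 h. It was 2.14-fold (interval 2.03 to 2.26) above 0 h and 8.25-fold (interval 7.47 to 9.13) above 24 h. The related chemokine Ccl7 was at 201 CPM at 6 h (0 h 110.3 CPM, 24 h 18.9 CPM). Nptx1, a pentraxin, and Hells, a chromatin remodeller of S phase, were among the genes with the largest ratios over 24 h, at 7.03-fold and 7.13-fold.

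The genes farthest below both other times included Ypel3, Mxd4, Sesn1, Mrc1 and St6gal1. Ypel3, linked to growth arrest, was at 46.0 CPM at 6 h, against 141 CPM at 0 h and 463 CPM at 24 h, which was lower at 6 h than at 0 h by 3.06-fold (interval 2.67 to 3.50) and than at 24 h by 10.1-fold (interval 8.90 to 11.4). Mxd4, a Max partner that opposes Myc, was at 17.3 CPM at 6 h (0 h 57.9 CPM, 24 h 147 CPM), and Sesn1, a sestrin that restrains mTORC1, at 23.6 CPM at 6 h, against 58.6 CPM at 0 h and 108 CPM at 24 h. These 3 genes were lowest at 6 h and highest at 24 h.

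Mrc1, the mannose receptor CD206, was at 56.3 CPM at 6 h (0 h 165 CPM, 24 h 208 CPM) and thus 2.93-fold (interval 2.59 to 3.31) lower than at 0 h. Sepp1, selenoprotein P, was at 262 CPM at 6 h, against 624 CPM at 0 h and 2569 CPM at 24 h, and its share of thinned barcodes was 10.1% of 6 h barcodes, 24.6% of 0 h barcodes and 63% of 24 h barcodes. St6gal1, a sialyltransferase, was at 9.80 CPM at 6 h (0 h 50.3 CPM, 24 h 57.8 CPM), the largest such distance from 0 h at 5.14-fold (interval 3.90 to 6.88) lower. These 3 genes of the cell surface, secretion and glycan transfer were each lower at 6 h than at both times. Slc40a1, the iron exporter ferroportin, was at 4.82 CPM at 6 h, against 17.2 CPM at 0 h and 52.9 CPM at 24 h. The chemokine receptor Cxcr4 was at 27.7 CPM at 6 h (0 h 77.5 CPM, 24 h 95.9 CPM). Man1a, a mannosidase of the Golgi, was 2.53-fold lower than at 0 h, and Zfp36l1, which promotes decay of AU-rich RNAs, 2.32-fold lower.

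A further set was low at 6 h mainly in relation to 24 h. Fcgrt, the neonatal Fc receptor, was at 44.3 CPM at 6 h, against 79.0 CPM at 0 h and 326 CPM at 24 h, and Fcgr2b, the inhibitory Fc receptor, at 7.80 CPM at 6 h (0 h 10.3 CPM, 24 h 56.2 CPM). Ltc4s, leukotriene C4 synthase, was at 29.4 CPM at 6 h, against 42.1 CPM at 0 h and 219 CPM at 24 h, which was 7.44-fold below 24 h but only 1.43-fold below 0 h. Ms4a6b, a membrane-spanning protein, Clec4a3, a C-type lectin, and Rapsn, which anchors acetylcholine receptors, were 7.70-fold, 7.65-fold and 7.88-fold lower at 6 h than at 24 h.

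Whole gene lists were then described by the counts of their members past 1.5-fold and by their median log2 ratio. The median over all measured genes was 0.05 over 0 h and 0.10 over 24 h. Of 30 measured S phase genes, 17 were higher than at 0 h and 0 lower. All 30 were higher than at 24 h, and the median ratio was 0.65 over 0 h and 1.71 over 24 h. Mcm3, a helicase subunit, was at 146 CPM at 6 h (0 h 87.4 CPM, 24 h 35.6 CPM). Ung, which removes uracil from DNA, was at 36.0 CPM at 6 h, against 18.1 CPM at 0 h and 2.97 CPM at 24 h, Uhrf1, which carries methylation to new DNA, at 52.8 CPM at 6 h (0 h 33.3 CPM, 24 h 8.91 CPM), and Ccne2 (cyclin E2) at 34.4 CPM at 6 h, against 21.8 CPM at 0 h and 4.02 CPM at 24 h. The list was highest at 6 h and lowest at 24 h, and it summed to 2801 CPM at 6 h (0 h 1956 CPM, 24 h 908 CPM).

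G2 and M phase genes differed from 0 h but hardly from 24 h. Of 36 measured members 23 were higher than at 0 h and 0 lower, with a median of 0.69. Against 24 h, 6 of 37 were higher and 4 lower, with a median of 0.25. Ube2c, which loads ubiquitin for the anaphase-promoting complex, was at 236 CPM at 6 h, against 102 CPM at 0 h and 266 CPM at 24 h, and Prc1, which bundles spindle microtubules, at 65.4 CPM at 6 h (0 h 29.2 CPM, 24 h 51.5 CPM). Ccnb2 (cyclin B2), at 58.3 CPM at 6 h, against 31.2 CPM at 0 h and 134 CPM at 24 h, and Cenpa, the centromeric histone, at 108 CPM at 6 h (0 h 81.5 CPM, 24 h 261 CPM), were highest at 24 h. Among the 10 cycling cell markers 9 were higher than at 0 h and 3 higher than at 24 h. The G2 and M phase list summed to 3100 CPM at 6 h, against 1953 CPM at 0 h and 2958 CPM at 24 h.

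Of 35 measured ribosome biogenesis genes, a list put together after values were seen, 22 were higher than at 0 h, 31 higher than at 24 h and none lower than at either. The median was 0.75 over 0 h and 1.42 over 24 h. Dkc1 (dyskerin) was at 40.8 CPM at 6 h (0 h 17.3 CPM, 24 h 6.99 CPM), Nolc1, a nucleolar scaffold, at 67.6 CPM at 6 h, against 33.9 CPM at 0 h and 11.2 CPM at 24 h, and Ncl (nucleolin) at 399 CPM at 6 h (0 h 239.6 CPM, 24 h 185 CPM). Nop10 went against the list at 448 CPM at 6 h, against 487 CPM at 0 h and 221 CPM at 24 h, below its 0 h level. The ribosomal proteins themselves differed little, since 0 of 32 were higher and 0 lower than at 0 h, and 0 higher and 1 lower than at 24 h.

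For 18 measured genes of nucleotide, folate and polyamine synthesis, also listed after values were seen, 9 were higher than at 0 h and 17 higher than at 24 h. Ctps, which makes CTP, was at 20.9 CPM at 6 h (0 h 7.26 CPM, 24 h 2.10 CPM), and Nme1, a nucleoside diphosphate kinase, at 971 CPM at 6 h, against 939 CPM at 0 h and 370.5 CPM at 24 h. Of 10 measured genes of the response to CSF1, another name of MCSF, 4 were higher and 1 lower than at 0 h, and 6 were higher than at 24 h. Besides Id1 and Id3 these were Ccnd1 (cyclin D1) at 453 CPM at 6 h (0 h 260.5 CPM, 24 h 94.5 CPM) and Plaur, the urokinase receptor, at 112 CPM at 6 h, against 55.3 CPM at 0 h and 28.8 CPM at 24 h, while Csf1r itself was lowest at 6 h. Of 10 heat shock genes, 3 were higher than at 0 h and 4 higher than at 24 h. Hsp90aa1, a chaperone, was at 324 CPM at 6 h (0 h 160.5 CPM, 24 h 110.4 CPM), and Hspa5, the chaperone of the endoplasmic reticulum, went the other way at 193 CPM at 6 h, against 333 CPM at 0 h and 229 CPM at 24 h.

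Genes of resident-like macrophages were lower at 6 h. Of 12 measured members, 7 were lower than at 0 h and 9 lower than at 24 h, and the median was -0.63 over 0 h and -1.32 over 24 h. Beside Mrc1 and Sepp1 these included C1qa, a complement subunit, at 150.1 CPM at 6 h (0 h 278 CPM, 24 h 490.1 CPM), and Gas6, a bridge to dying cells, at 75.7 CPM at 6 h, against 166 CPM at 0 h and 288 CPM at 24 h. Msr1, a scavenger receptor, went against the list at 98.1 CPM at 6 h (0 h 76.2 CPM, 24 h 36.5 CPM). Core macrophage genes differed less. Of 19 measured against 0 h, 0 were higher and 1 lower, and of 20 measured against 24 h 7 were lower. The gene lower than at 0 h was Adgre1. Mertk, a receptor for dying cells, was under the minimum level of 20 CPM in that comparison, at 4.15 CPM at 6 h, against 12.4 CPM at 0 h and 22.9 CPM at 24 h.

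Among genes of lipid export, Apoe, which carries cholesterol out of cells, was at 5256 CPM at 6 h (interval 5199 to 5315), 8762 CPM at 0 h and 11284 CPM at 24 h. It gave most of the LXR target list, which summed to 5511 CPM at 6 h (0 h 9086 CPM, 24 h 11868 CPM). Pltp, a phospholipid transfer protein, was at 74.4 CPM at 6 h, against 131 CPM at 0 h and 292 CPM at 24 h, and Abca1, a cholesterol exporter, at 4.48 CPM at 6 h (0 h 11.4 CPM, 24 h 30.2 CPM). The nuclear receptor LXR switches on cholesterol export. Of its targets 2 of 5 measured were lower than at 0 h and 4 of 6 lower than at 24 h. The median log2 ratio of the measured targets was 0.03 over 0 h and -0.96 over 24 h. Ferritin stores iron, and its light chain Ftl1 was at 22561 CPM at 6 h, against 35779 CPM at 0 h and 26990 CPM at 24 h. The heavy chain Fth1 was at 26319 CPM at 6 h (0 h 36667 CPM, 24 h 29530 CPM). Of these ferritin ratios, only that of Ftl1 to 0 h passed 1.5-fold. Of the 10 measured Ms4a and Fc receptor genes, listed after values were seen, 8 were lower than at 24 h, among them Fcgr3 at 256 CPM at 6 h, against 340.4 CPM at 0 h and 862 CPM at 24 h.

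Some of the other lists differed in 1 direction, and others had members on both sides or few past 1.5-fold. Of 14 measured cytokine and chemokine genes 4 were higher than at 0 h, 9 higher than at 24 h and 0 lower than at either. Il1rn, the interleukin 1 receptor antagonist, was at 43.8 CPM at 6 h (0 h 20.7 CPM, 24 h 12.1 CPM), and Cxcl2, which draws neutrophils, at 42.2 CPM at 6 h, against 25.1 CPM at 0 h and 12.9 CPM at 24 h. Of 12 immediate early genes 0 were higher and 4 lower than at 0 h. Zfp36, which speeds decay of cytokine RNAs, was among these 4, at 32.9 CPM at 6 h (0 h 72.4 CPM, 24 h 40.0 CPM). Shares of members are read beside those of all genes. Of these, 7.02% were higher and 3.8% lower than at 0 h, and 22.7% higher and 15.8% lower than at 24 h. Among 11 interferon-stimulated genes 3 were lower than at 0 h, 3 lower than at 24 h and 0 higher than at either. Of 25 lysosome genes 0 passed 1.5-fold against 0 h, and 6 were lower and 1 higher than at 24 h. Among 18 glycolysis genes 8 were higher than at 24 h, including Slc2a1, the glucose transporter, at 28.1 CPM at 6 h, against 15.6 CPM at 0 h and 6.46 CPM at 24 h. Of 7 measured genes of the IL-4 response 3 were lower and 1 higher than at 0 h. The counts of the IL-4 response thus went both ways. In 32 genes of oxidative phosphorylation, 14 of MHC class I, 15 of cholesterol synthesis, 14 of matrix and proteases, 10 NRF2 targets and 14 of ATF4 and ER stress, at most 3 a list passed 1.5-fold in 1 direction against 0 h. Of 6 measured MHC class II genes and of 6 mitochondrially encoded genes, 0 passed against 0 h. Against 24 h, 7 of the 32 oxidative phosphorylation genes were higher, close to the 22.7% of all genes that were higher. Of the 10 NRF2 targets 5 were higher, and 4 of the 14 MHC class I genes were lower. For ATF4 and ER stress, 6 of 15 genes were higher and 2 lower. Only 2 of 13 replication histones were measured, of which 1 was higher than at 0 h.

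**Figure D2:**
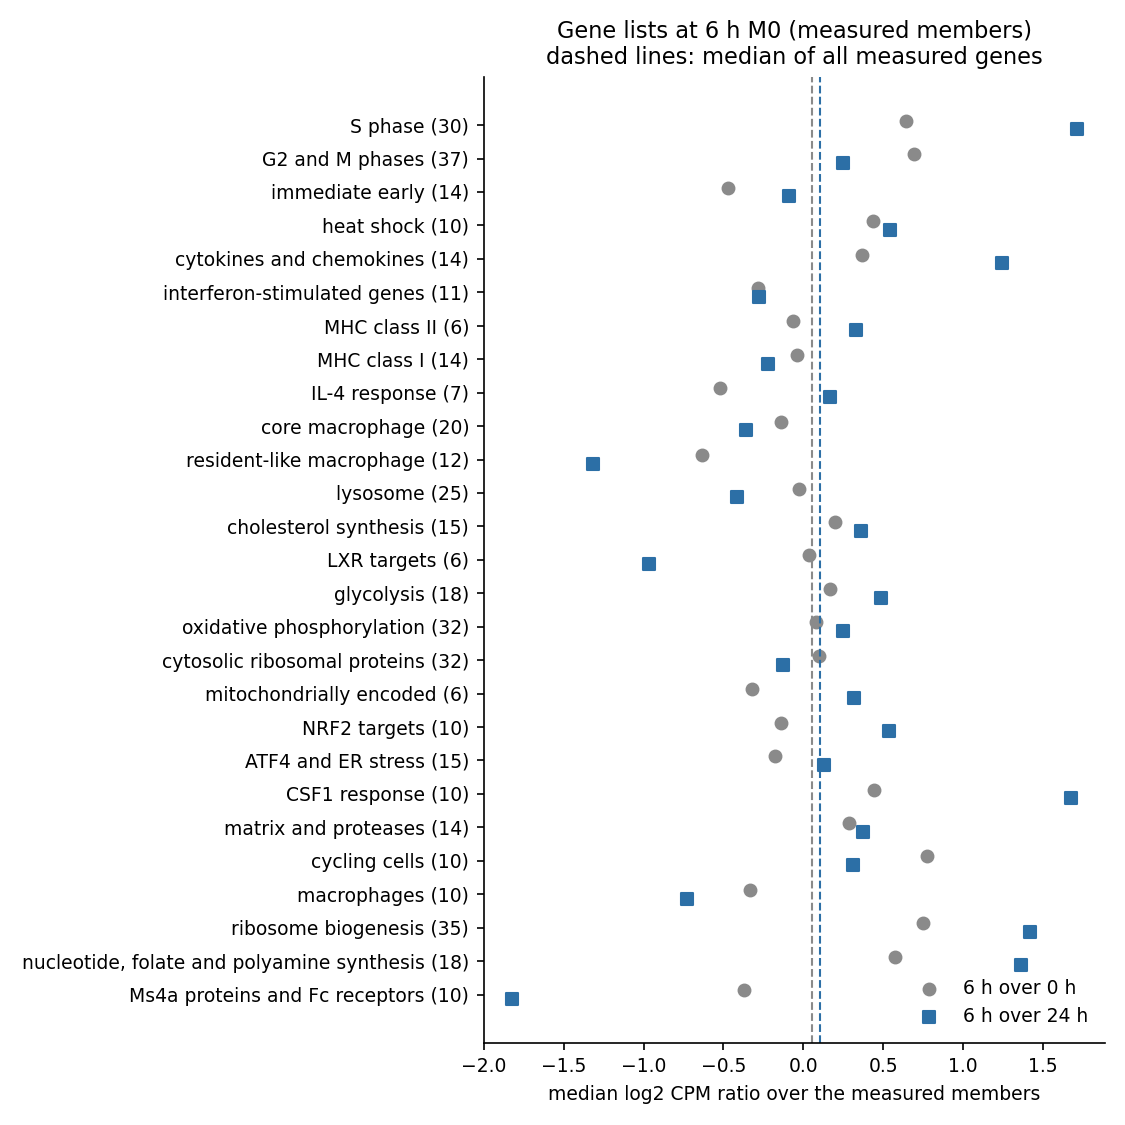
Median log2 CPM ratio of the measured members of each list, 6 h over 0 h (circles) and 6 h over 24 h (squares), for lists with at least 5 measured members, whose number is in brackets, and the medians over all measured genes as dashed lines. S phase (1.71), CSF1 response (1.68) and ribosome biogenesis (1.42) lie farthest right against 24 h, and Ms4a and Fc receptors (-1.82) and resident-like macrophage genes (-1.32) farthest left.

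The next question was how these levels were spread over single cells, beginning with division. Promoter windows are shown for the markers Top2a and Birc5 and for 2 further cell cycle genes, Ube2c of G2 and M phases and Mcm5 of S phase. They are RefSeq windows of 300 bases, from 250 bases before the start of transcription, in build GRCm38.p6. Capitals mark the letters TTTGAA or TTCGAA, the cell cycle homology region (CHR), CCAAT, and for Mcm5 the E2F letters TTTCCCGC, TTTCGCGC, TTTGCCGC or TTTGGCGC, each on either strand. In Mcm5 and Ube2c some matches on the 2 strands overlap and form 1 run of capitals.
Top2a: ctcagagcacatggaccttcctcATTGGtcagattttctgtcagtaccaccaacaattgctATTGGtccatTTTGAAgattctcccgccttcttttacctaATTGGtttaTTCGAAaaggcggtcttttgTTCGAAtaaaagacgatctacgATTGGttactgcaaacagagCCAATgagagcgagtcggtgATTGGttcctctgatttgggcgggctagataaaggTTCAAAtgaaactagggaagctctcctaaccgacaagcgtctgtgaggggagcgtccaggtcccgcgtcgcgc
Birc5: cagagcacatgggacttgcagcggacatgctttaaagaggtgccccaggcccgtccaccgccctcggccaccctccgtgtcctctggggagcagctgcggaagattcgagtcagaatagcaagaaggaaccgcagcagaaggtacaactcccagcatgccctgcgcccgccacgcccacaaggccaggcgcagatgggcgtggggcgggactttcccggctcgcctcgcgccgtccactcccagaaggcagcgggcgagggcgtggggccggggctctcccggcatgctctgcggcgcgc
Ube2c: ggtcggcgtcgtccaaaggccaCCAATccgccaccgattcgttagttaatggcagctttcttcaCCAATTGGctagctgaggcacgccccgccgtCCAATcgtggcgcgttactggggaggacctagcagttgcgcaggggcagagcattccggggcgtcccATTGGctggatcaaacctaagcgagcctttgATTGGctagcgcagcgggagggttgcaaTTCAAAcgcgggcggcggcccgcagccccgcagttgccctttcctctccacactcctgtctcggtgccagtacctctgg
Mcm5: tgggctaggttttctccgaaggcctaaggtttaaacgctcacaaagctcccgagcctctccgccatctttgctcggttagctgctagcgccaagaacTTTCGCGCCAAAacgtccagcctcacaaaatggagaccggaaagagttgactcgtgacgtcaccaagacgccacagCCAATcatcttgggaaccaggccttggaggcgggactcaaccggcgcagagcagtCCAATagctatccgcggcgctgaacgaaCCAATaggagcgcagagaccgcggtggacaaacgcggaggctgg
The Top2a window is chr11:99024140-99024439 on the minus strand, Birc5 chr11:117848987-117849286 on the plus strand, Ube2c chr2:164769679-164769978 on the plus strand and Mcm5 chr8:75109259-75109558 on the plus strand. Top2a held 4 CHR and 6 CCAAT matches and Ube2c 1 and 6, and the Birc5 window held neither set of letters. Over the lists, 38 of 49 windows of G2 and M phase genes (77.6%) held a CHR match and 39 (79.6%) a CCAAT match, against 19.2% and 37.4% of all 32851 windows. The E2F letters were in 12 of 32 windows of S phase genes (37.5%) and in 2.26% of all windows. They were in 10.6% of 263 windows of the genes above both other times at 6 h. Of 30 measured S phase genes 17 were above both, so these sets overlap.

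Top2a was at 176 CPM at 6 h (0 h 124 CPM, 24 h 103 CPM), and Birc5 at 282 CPM at 6 h, against 187 CPM at 0 h and 297 CPM at 24 h. A UMI of either was found in 16.9% (interval 15.4 to 18.4) of thinned barcodes at 6 h, 10.7% (interval 9.91 to 11.5) at 0 h and 12.9% (interval 11.7 to 14.2) at 24 h. Without thinning the shares were 39.5%, 18.7% and 26.7%, at the unequal depths given above. The 6 h share was the highest at either depth, and its thinned interval did not overlap those of the other times. Among 6 h barcodes with no UMI of another G2 or M phase gene the share with either marker was 5.20% (median depth 1970.5 UMIs). Among those with at least 3 it was 43.3% (median depth 2022 UMIs).

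Barcodes with a marker UMI also held more of the other genes of these phases. At 6 h they held a mean of 2.67 UMIs of the other G2 and M phase genes per 500, against 0.944 in barcodes without a marker UMI. Their median depths were 1963 and 2002 UMIs. Birc5 was found in 25.1% of 6 h barcodes with Top2a and in 9.68% of those without.

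At least 3 UMIs of G2 and M phase genes were counted in 22.2% (interval 20.5 to 23.9) of 6 h barcodes, 12.9% (interval 12.1 to 13.8) at 0 h and 17.6% (interval 16.2 to 19.0) at 24 h. For S phase genes the shares were 18.7% (interval 17.2 to 20.3) at 6 h, 11.1% (interval 10.3 to 12.0) at 0 h and 3.01% (interval 2.40 to 3.72) at 24 h. The 6 h share was thus the highest for both lists, while 24 h was second for G2 and M phases and last for S phase. Both lists reached 3 UMIs in 4.58% of 6 h barcodes, and neither list had a UMI in 19.6% (interval 18.0 to 21.2), against 36.3% at 0 h and 46.6% at 24 h. There was no gap between the groups, since 272 barcodes at 6 h had exactly 2 and 183 exactly 3 UMIs of the G2 and M phase list, so these are ranges and not cell types.

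**Figure D3:**
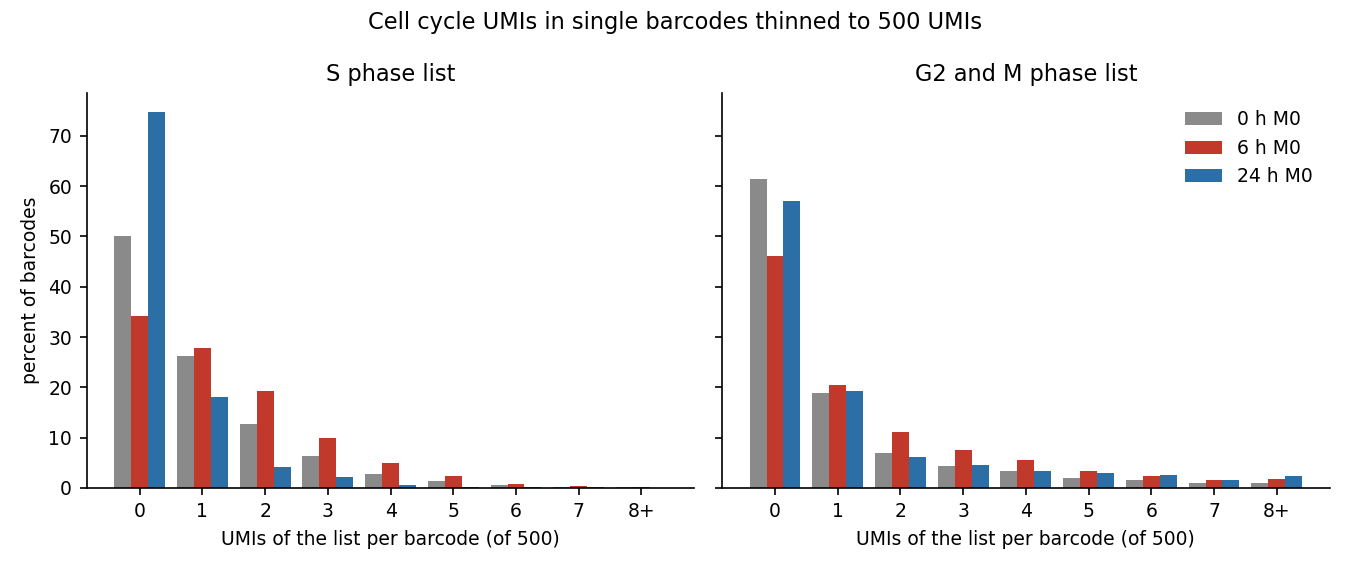
Percent of barcodes (vertical, from 0) by the number of UMIs of the S phase list (left) or of the G2 and M phase list (right) per barcode thinned to 500 UMIs, for 0 h, 6 h and 24 h M0. Barcodes without a UMI were least frequent at 6 h, at 34.3% for the S phase list and 46.2% for the G2 and M phase list, and at 24 h 74.7% had no S phase UMI.

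G2 and M phase UMIs were gathered in fewer cells than S phase UMIs. The variance over the mean of the UMIs of a list per barcode (the Fano factor, 1 for Poisson counts) was 1.5 for S phase and 2.78 for G2 and M phases at 6 h, against 1.68 and 3.03 at 0 h. The 5% of barcodes with most UMIs of a list held 25.5% of its G2 and M phase UMIs and 19.0% of its S phase UMIs.

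Levels were then given for the barcodes with no UMI of either cell cycle list after thinning, of which there were 479 at 6 h, against 2025 at 0 h and 1272 at 24 h. This choice was made after values were seen. From all their UMIs, ribosome biogenesis genes were at 3451 CPM at 6 h, 2316 CPM at 0 h and 1724 CPM at 24 h. Resident-like genes were at 17361, 24898 and 33652 CPM in the same order. These barcodes were not free of cell cycle RNAs before thinning, since S phase genes were at 1226 CPM at 6 h (0 h 523 CPM, 24 h 311 CPM) and G2 and M phase genes at 599.5 CPM (0 h 281 CPM, 24 h 501.5 CPM), so they cannot stand for non-dividing cells. Ccl2 was at 492, 200 and 35.4 CPM, and Id1 at 77.9, 33.7 and 1.59 CPM there.

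Barcodes with at least 5 UMIs of the cell cycle lists numbered 576 at 6 h, against 763 at 0 h and 342 at 24 h. The 6 h and 0 h levels were closer there for some lists and farther apart for others. Resident-like genes were at 13668 CPM at 6 h and 14434 CPM at 0 h, a ratio of 0.947, where barcodes without cell cycle UMIs gave 0.697. For ribosome biogenesis the ratio to 0 h was 1.18, where the barcodes without gave 1.49. NRF2 targets and cholesterol synthesis went the other way. Their ratios were 0.682 and 1.39, where the barcodes without gave 0.729 and 1.25. The differences between these ratios were not tested.

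Lysosome and core macrophage genes were lower in 6 h barcodes with G2 and M phase UMIs. In the 542 barcodes with at least 3 G2 and M phase UMIs, lysosome genes were at 18614 CPM and core macrophage genes at 27404 CPM, against 26388 and 39703 CPM in barcodes without cell cycle UMIs after thinning. Mmp12, macrophage elastase, was at 223 CPM and 667 CPM in these groups. The ratio for lysosome genes was 0.705 at 6 h, against 0.781 at 0 h and 0.747 at 24 h. Cells are not replicates, and these values describe 1 library each.

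The spread of single genes over the 6 h cells was measured after thinning, which draws the Fano factor towards 1. Among 1353 genes with a mean of at least 0.05 UMIs per thinned barcode the median Fano factor was 1.04, and 67 genes (4.95%) were above 1.2. At 1000 UMIs per barcode 175 of 2454 genes were above it. The share above 1.2 was 5.44% at 0 h and 5.81% at 24 h. Genes of a few cells, chemokines and abundant RNAs of most cells had the largest factors.

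Cd74, the invariant chain of MHC class II, had the highest factor at 9.44, and it was found in 3.60% of thinned barcodes with up to 21 UMIs in 1. The 123 barcodes (5%) with most UMIs of the MHC class II list held 94.5% of them. At least 3 such UMIs were found in 22 barcodes at 6 h, 0.899% (interval 0.565 to 1.36), with 1.13% at 0 h and 1.36% at 24 h. As a group these barcodes also carried Ifitm1 (2052 CPM, against 6.14 CPM in barcodes with no MHC class II UMI) and Napsa (1026 against 56.4 CPM). Ifitm1 came from 156 UMIs in these 22 barcodes. The 13 barcodes of cluster 5, described below, held 155 Ifitm1 UMIs, found in 69.2% of them.

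Ccl2 had a factor of 2.14 at 6 h, against 2.09 at 0 h and 1.32 at 24 h. It was found in 16.4% of 6 h barcodes, 7.38% of 0 h barcodes and 1.504% of 24 h barcodes. Such a share also depends on the level per cell. The Fano factor depends on the level too, and the level of Ccl2 was lowest at 24 h. Ccl7 was found in 18.5% (interval 14.8 to 22.6) of the 401 barcodes with Ccl2 and in 4.30% (interval 3.47 to 5.28) of those without. For Ccl4 the shares were 10.5% and 4.11%. Barcodes with Ccl2 thus held the other chemokines more often, also at 0 h, where Ccl7 was in 23.3% and 1.78%. By comparison Id3 was found in 5.98% of 6 h barcodes with Id1 and in 5.50% of those without, with overlapping intervals. No class of cells that should lack these RNAs was large enough to give a background share.

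Of abundant RNAs, Pf4 had a factor of 3.87 although 87.9% of barcodes held it, and its level was alike over time at 7841 CPM at 6 h (0 h 7694 CPM, 24 h 8129 CPM). Fth1 (2.89), Lyz2 (2.29), Apoe (2.26), Prdx1, a peroxiredoxin (2.03), Lgals3, galectin-3 (1.94), and Spp1, osteopontin (1.69), were also among the widest spread of the abundant RNAs. Lyz2 and Apoe had larger factors at 0 h, 3.51 and 3.75, where their levels were higher too. For Sepp1 the factor was 1.06 at 6 h, where its level was lowest, 1.49 at 0 h and 1.72 at 24 h.

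**Figure D4:**
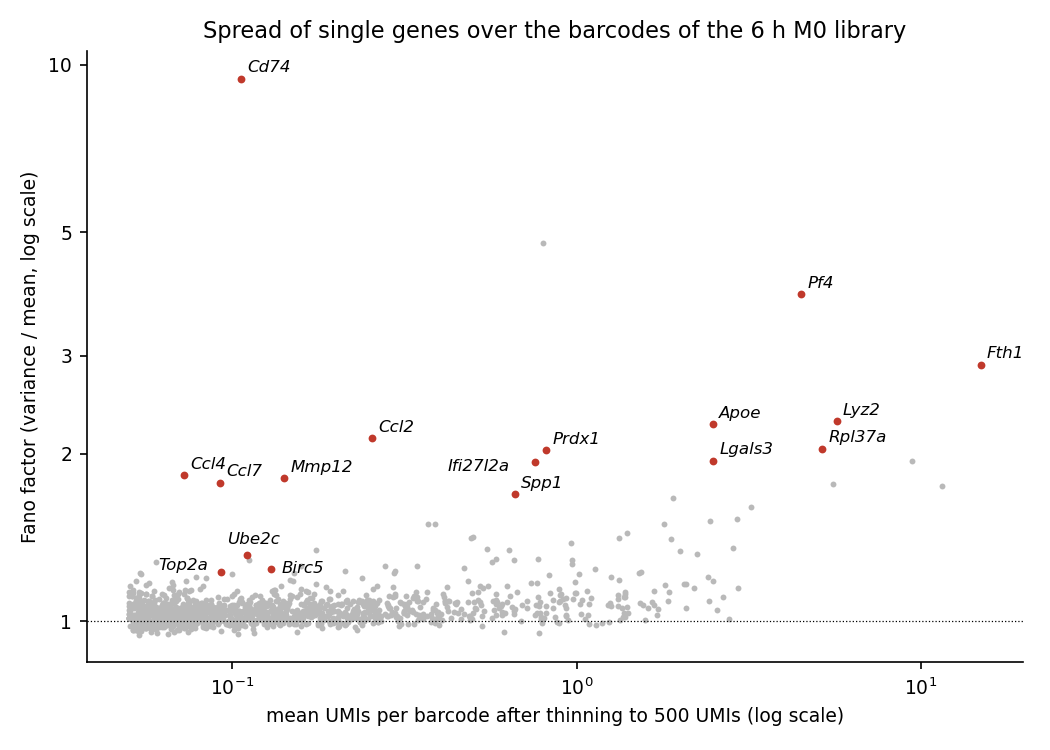
Fano factor (vertical, log scale) against mean UMIs per thinned barcode (horizontal, log scale) for the 1353 genes above the minimum mean in the 6 h M0 library, with the dotted line at 1. Cd74 (9.44), Pf4 (3.87) and Ccl2 (2.14) stand above the band of genes at their means, and the unlabelled point near 5 is Gm42418.

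Mmp12 had a factor of 1.81 and was found in 10.2% of 6 h barcodes, 6.66% of 0 h barcodes and 4.69% of 24 h barcodes. In the 250 barcodes with Mmp12 at 6 h, F10 (coagulation factor X) was at 62.7 CPM, against 10.8 CPM in barcodes without. Mfge8, which tags dying cells for uptake, was at 142 against 29.5 CPM. Atp6v0d2, a proton pump subunit, was at 167 against 36.2 CPM, and Fabp4, a fatty acid binding protein, at 143 against 57.4 CPM. Nptx1 and Ccl7 were lower there, at 37.3 against 83.7 CPM and 105 against 213 CPM. The osteoclast list summed to 343 against 135 CPM, the neutrophil list to 145 against 61.1 CPM and the macrophage list to 14127 against 14672 CPM. Mmp8, a metalloproteinase on the neutrophil list, was at 112 against 35.5 CPM and gave most of the difference of that list. The part of these markers was not tested. Median depth was 2080 and 1993 UMIs.

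Clustering of the 6 h barcodes alone gave 5 clusters, which are described by their leading genes and give no test. Cluster 2 (819 barcodes) was cycling-like. Its leading genes were Ube2c, Cenpf, Prc1, Lockd and Birc5, and all 10 markers of cycling cells had UMIs in it. It held 77.3% of the G2 and M phase UMIs of the library. A Top2a or Birc5 UMI was found in 41.3% of its thinned barcodes and in between 2.51% and 6.32% of those of clusters 1, 3 and 4. S phase genes were spread over the clusters, with 3380.1 CPM in cluster 2, 3004 CPM in cluster 3 and 2412 CPM in cluster 1.

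Cluster 4 (239 barcodes) was led by Mmp12, Ctsk, Hist1h2bc, Acp5 and Atp6v0d2. Mmp12 was at 1733 CPM in it and 184 CPM outside. Ctsk, Acp5 and Atp6v0d2 are osteoclast markers, and the osteoclast list stood at 533 CPM in it and 111 CPM outside. Of the 10 members of that list 8 had UMIs in the cluster. Calcr and Oscar were at 0, and Nfatc1, at 14.9 CPM, was not above its 17.5 CPM in cluster 1. Ctsk came from 36 UMIs in 3.77% of the barcodes of cluster 4. Macrophage markers stood at 14132 and 14672 CPM, so the cluster was left without a cell type name. It was low in cell division, with S phase genes at 1361 CPM and G2 and M phase genes at 795 CPM, and high in lysosome genes at 34252 CPM, against 21142 CPM outside.

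Clusters 1 and 3 were set apart by small ratios and by depth. They also differed in the median share of mitochondrially encoded UMIs, at 1.96% in cluster 1 and 1.15% in cluster 3. Cluster 1 (853 barcodes, median 1429 UMIs) was led by Xylt2, Ncoa3, Sdc3, Epb41 and Nudt3, with ratios of about 1.95 to 2.27. Cluster 3 (522 barcodes, median 3340 UMIs) was led by Ung, Rtp4, Hspa5, Farsa and Cd14, with ratios of about 2.09 to 2.51. C1qb was at 1390.5 CPM in cluster 3 and 845 CPM in cluster 1, while Pf4 was at 7259.8 and 11198 CPM. The parts of depth and of the mitochondrial share in this split were not tested.

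Cluster 5 held 13 barcodes, led by H2-Ab1, H2-Eb1, H2-Aa, Cd74 and Ifitm1. These 0.531% of barcodes carried 70.5% of the MHC class II UMIs of the library. Cd74 was at 23059 CPM in them and 91.2 CPM outside, and a Cd74 UMI was in 13 of 13 after thinning, against 3.08% of the other barcodes. Of the dendritic cell markers, 4 of 14 were found in it (Cd209a, Ccl22, Batf3 and Kmo), and the list summed to 954 CPM, against 9.37 CPM outside. Defining markers such as Flt3, Zbtb46, Ccr7 and Xcr1 were at 0. The monocyte list summed to 445 CPM, against 82.0 CPM outside, with UMIs of 4 of its 10 members (Ccr2, Plac8, Ms4a4c and Cx3cr1). The part of these markers in the cluster was not tested. Among macrophage genes Lyz2 was at 6209.9 CPM, Apoe at 254 CPM and Pf4 at 339 CPM, and the 10 macrophage markers summed to 7524 CPM, against 14668 CPM outside. Itgam, at 233 CPM, Fcgr1, at 63.6 CPM, and Cd68, at 572 CPM, were not below the lowest of the other clusters, where they were at 119, 37.2 and 544 CPM. Ccl2 was at 42.4 CPM from 2 UMIs. The leading genes were of antigen presentation and the cluster was given no cell type name.

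**Figure D5:**
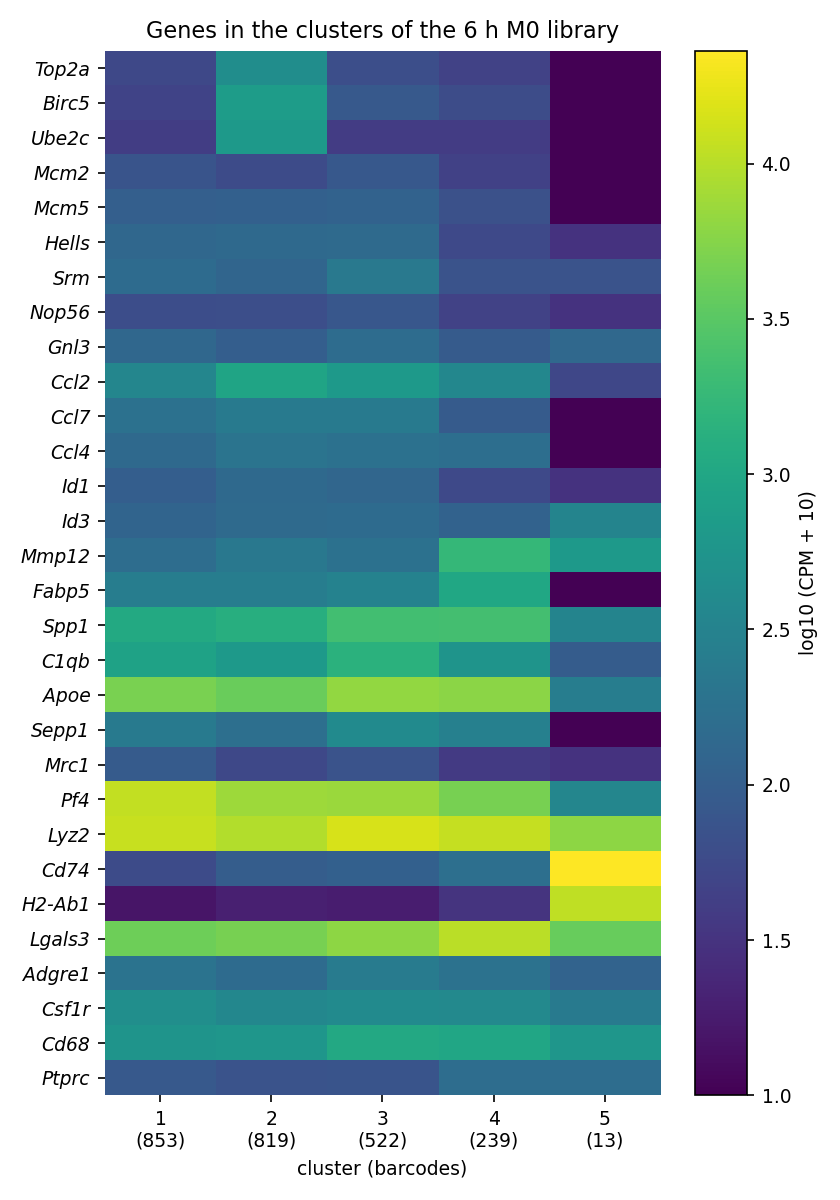
Level of named genes, as log10 of CPM plus 10 (colour), in the 5 clusters of the 6 h M0 library, with barcodes per cluster in brackets. Top2a, Birc5 and Ube2c stand out in cluster 2, Mmp12 and Fabp5 in cluster 4, and Cd74 and H2-Ab1 in cluster 5, where Pf4, Apoe and Sepp1 are low.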

How the data were processed

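Single-cell RNA libraries of M0 macrophages were made by the authors with the 10X droplet method and sequenced on a NextSeq 500. The UMI counts per gene and barcode were made by the authors with Cell Ranger on mm10, per the labels and the study's methods, and deposited as filtered matrices of 27998 genes (the Cell Ranger version is not given in the sources used here). No barcode was removed here.

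UMI counts were summed over the barcodes of a library and scaled to CPM (pandas 2.3.3, NumPy 2.4.6). A gene was measured at 20 CPM or more in either library and counted as higher or lower past 1.5-fold. With 1 library per time, no count model and no test could be used. Intervals at 95% (SciPy 1.17.1) are exact binomial for shares and ratios and exact Poisson for CPM. Barcodes were thinned to 500 UMIs (seed 1) for shares and Fano factors, and the step was tested on simulated data. Clusters used scanpy 1.11.5 and leidenalg 0.10.2 (2000 variable genes, 30 components, 20 neighbours, resolution 0.6). Scrublet marked 8 barcodes (0.327%) as doublets, too few to show that it had worked. Promoters came from RefSeq (GRCm38.p6), which listed 46 of 52 genes of G2 and M phases and 27 of 36 of S phase. UMI totals ranged from 5725353 to 7570554 per library.

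The library, its markers, 38 lists (24 of pathways, 14 of cell type markers) and 4 lists added later were chosen with earlier results of these data known. Genes named in the text were the markers Top2a and Birc5, the 10 largest and smallest ratios per comparison and the 10 farthest above and below both other times at 50 CPM or more, the 20 highest Fano factors, the 10 highest levels, members of lists with the largest differences (at most 4) or against their list (at most 2), 5 leading genes per cluster and cell type markers. Predicted genes were left out of the rankings. Alternatives were median-of-ratios scaling, other filters, a fold of 2, equal weight per barcode, other barcode subsets, thinning depths, seeds and resolutions. Bulk, ATAC, M1 and M2 libraries were not used here.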

Additional observations from a re-analysis of the deposited data

How the results depend on the processing

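No paired analysis was possible because each time was 1 library and no result comes from a test between samples. Counts are given in the order higher than 0 h, lower than 0 h, higher than 24 h, lower than 24 h, above both and below both. With a minimum of 50 CPM they were 160, 74, 650, 422, 130 and 84, and with no minimum beyond 3 UMIs they were 1357, 1208, 2687, 2347, 871 and 764, since the minimum sets how many genes are measured. At a fold of 2 they were 46, 40, 526, 371, 37 and 55. Removing barcodes with at least 2 UMIs of either cell cycle list left 250 barcodes at 6 h, 2749 at 0 h and 1186 at 24 h. Their median depths were 1451.5, 834 and 1339.5 UMIs, so the subsets compared were unlike in size and depth. In these subsets 613 genes were higher and 715 lower than at 0 h, 496 above both and 612 below both. In barcodes with no cell cycle UMI after thinning, an alternative chosen after seeing the data, 405 were lower than at 0 h and 338 below both. The causes of these 2 shifts were not tested. The share with Top2a or Birc5 at 6 h was 27.1% at 1000 UMIs and 39.5% without thinning, and that with at least 3 G2 and M phase UMIs 36.8% and 54.5%, since a deeper barcode holds more UMIs. At 1000 UMIs, 175 genes had a Fano factor above 1.2. Resolution 0.3 gave 3 clusters, and 1 of them, with 1622 barcodes, took in most of clusters 1, 3 and 4. It held 852 of 853, 479 of 522 and 233 of 239 of their barcodes. Resolution 1.0 gave 7 clusters. With another seed 65.5% of cluster 3 stayed in 1 cluster. Without barcodes of at least 2 cell cycle UMIs, which removes these RNAs by construction, the log2 ratio of the summed level of 6 h to 0 h turned to -0.27 for G2 and M phases and to -0.069 for cycling cell markers. Of 71 values of the main results under the alternatives, 41 stayed within the limits set and 30 moved. None of the 71 was reversed. Of 232 levels of lists under 4 alternatives, 65 stayed, 165 moved and 2 were reversed. Depth limits shares, since at 500 UMIs a barcode lacks most RNAs of low level.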

Other observations

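Promoter letters were also counted for the genes that lay above or below both other times at 6 h. The CHR letters TTTGAA or TTCGAA were in 14.1% of 263 windows of the genes above both and in 19.2% of all windows. The E-box letters CACGTG were in 14.1% of the same windows, in 18.9% of 37 windows of ribosome biogenesis genes and in 7.15% of all windows. Of 35 measured ribosome biogenesis genes 22 were above both, so these sets overlap. The forkhead letters GTAAACA were in 6.83% of 205 windows of genes below both other times and in 3.65% of all windows. Both strands were searched, and these shares are descriptions of letters in 300 bases. Gm42418, chosen after its values were seen, had a Fano factor of 4.79 at 6 h.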
